A study of Mus musculus with 4 samples.

Results

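Hoxa3, Hoxa5, Hoxa7, Hoxa9 and Hoxa10, with the cofactor genes Meis1, Meis2, Pbx2 and Pbx3, were followed in RNA-seq of primary mouse hematopoietic stem and progenitor cells (HSPCs) with and without Chaf1b. Chaf1b encodes a subunit of the histone chaperone CAF-1, which places newly made histones on replicated DNA. The 9 genes came from a list of names that was chosen with earlier results of these data known. They were found by mouse symbol among the 43629 gene identifiers counted in each library. The question put to them was whether loss of Chaf1b changed their transcript levels. All cells were CD117+ HSPCs of C57Bl/6 mice that carried Chaf1b (fl/fl), in which loxP sites flank part of the gene. Control HSPCs were spinfected with the empty retroviral vector MIGR1, and Chaf1b-deleted HSPCs, which the labels call Chaf1b (-/-), with MIGR1-Cre, so that the gene was removed in culture and not in the animal. Per the labels, the medium of both groups held SCF at 50 ng/mL, IL6 at 20 ng/mL and IL3 at 10 ng/mL, and eGFP+ cells, which carry the vector, were sorted 48 h after spinfection. Mice of both sexes, aged 8 to 12 weeks, were used in the study. Each group had 2 libraries. The labels do not say that they came from separate animals or cultures, so the p-values measure only the spread between these libraries, which may be technical in part.

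HOX proteins are homeodomain transcription factors that give positions along the body axis their identity, and their genes lie in clusters that tend to be switched on in order along the chromosome. In blood formation, Hoxa9 and its neighbours are active in stem and progenitor cells and are turned down as cells mature, and lasting HOXA9 activity blocks myeloid differentiation and drives leukemia. MEIS and PBX proteins belong to the TALE class of homeodomain proteins, which bind DNA together with HOX proteins and raise their affinity and selectivity. Meis1 and Pbx3 are often co-expressed with Hoxa9 in leukemia, and forced Meis1 makes Hoxa9-driven leukemia faster.

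The reads counted on genes numbered from 18468637 to 25409926 per library, and all levels are given in CPM, the counts of a gene per 1000000 counts on all genes. A floor of 3 counts corresponded to 0.118 to 0.162 CPM. Chaf1b itself had 80.3 and 57.9 CPM in the control libraries and 16.1 and 17.9 CPM in the deleted libraries. Its log2 fold change was -2.00 (SE 0.25, adjusted p = 0.0330, edgeR quasi-likelihood test, Benjamini-Hochberg adjusted), and it was the only gene called lower. With at least 10 counts required in every library, or with a replicate block, its adjusted p was 0.0651 or 0.0592 at nearly the same fold change. Chaf1b-deleted replicate 1 stood apart from the other libraries. It had 7905 counts of Xist against 23 to 33 elsewhere, and 3 counts on 4 Y-linked genes against 5805 to 7771. By these genes its cells were female and those of the other libraries male. The spread between the deleted libraries is therefore not technical alone, and the part of sex in the levels was not tested. All 25 listed interferon-stimulated genes were more than 2-fold above the control mean in Chaf1b-deleted replicate 1, against 0 of 25 in Chaf1b-deleted replicate 2. The fold changes of the genes followed are therefore also given without deleted replicate 1. Of 1036 olfactory receptor genes, which blood cells are not known for, 39.7% had a count in control replicate 1 and 4.05% to 11.8% in the other libraries. Kit, the gene for CD117, had 109, 124, 95.6 and 124 CPM in control replicates 1 and 2 and deleted replicates 1 and 2. The 10 listed progenitor markers were uneven in the controls. They ran from Ly6a with 3.78 and 10.4 CPM and Flt3 with 4.66 and 5.31 CPM to Mpo with 3420 and 2680 CPM. The 8 listed neutrophil markers, with S100a8, S100a9 and Ngp among the highest, summed to far more in every library. Their sums were 45100 and 52600 CPM in control and 65500 and 49200 CPM in deleted HSPCs.

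All 9 genes had counts in every library, and 8 of them passed the filter on low counts. At the thresholds of at least 1.5-fold and an adjusted p under 0.05, 0 of these 8 genes were called higher and 0 were called lower (quasi-likelihood test of edgeR, Benjamini-Hochberg adjusted over 16500 genes). Over all genes tested, 0.37% were called higher and 0.00606% lower. None of the 8 genes reached an unadjusted p of 0.05 in the same test, against 9.15% of all genes tested with a higher and 3.1% with a lower level. By edgeR's exact test, its likelihood ratio test and DESeq2, the number of the 9 genes called was also 0 in either direction. The deleted libraries both lay above both controls for 2 of the 8 genes, Hoxa5 and Pbx2, and both lay below for 1, Hoxa9. Among all genes tested, 21.4% had deleted libraries above and 22.9% below both controls. The median log2 fold change of the 8 genes was 0.10, and that of all genes tested was -0.03. As these were bulk samples, fewer cells of a type and less RNA per cell cannot be told apart.

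**Figure D1:**
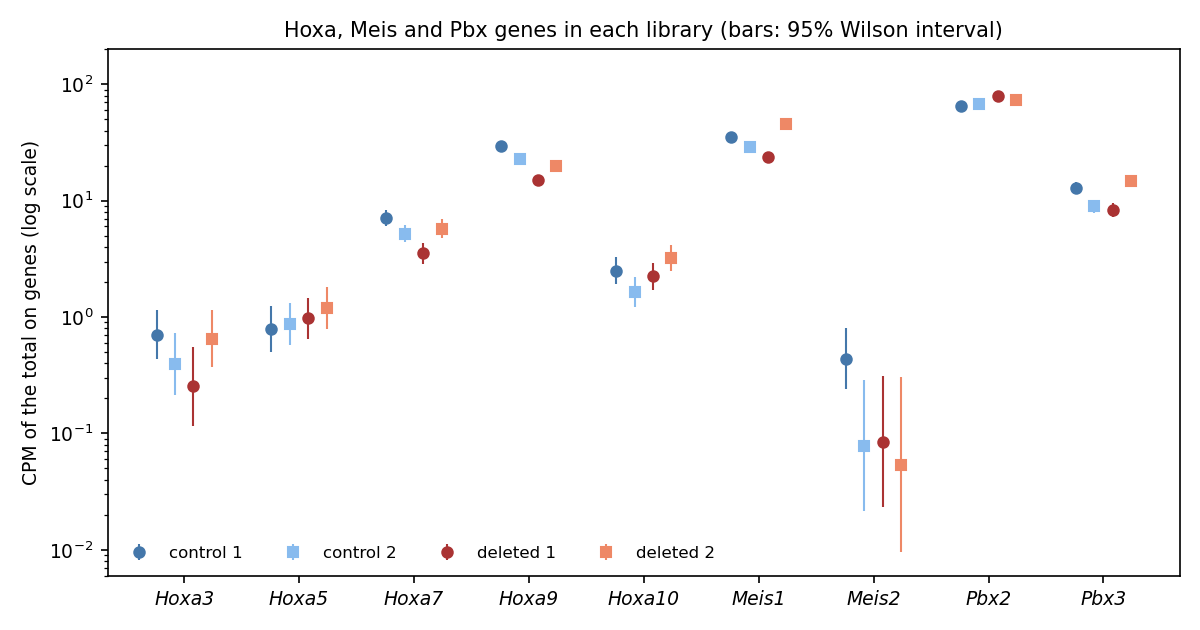
Level of each gene in each of the 4 libraries, in CPM on a log axis, with 95% Wilson intervals that cover counting error only. Of the 8 tested genes, only Hoxa9 had both deleted libraries (15.1 and 19.8 CPM) under both controls (29.4 and 22.9 CPM).

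The Hoxa genes lie side by side on the minus strand of chromosome 6 and are described from the 3′ part of the cluster, which is switched on first in the embryo, to the 5′ part. The starts of Hoxa9 and Hoxa10, neighbours whose fold changes had opposite signs without passing the test, are shown first. Each runs 5′ to 3′ from 250 bases before to 50 bases after a RefSeq transcript start, in the build GRCm38.p6, and the capitals mark CpG dinucleotides, the sites of DNA methylation in mammals. Hoxa9 has 1 listed start, at chr6:52227321-52227620 on the minus strand. Hoxa10 has 2 listed starts, the upstream one at chr6:52240805-52241104 and the downstream one at chr6:52234890-52235189, both on the minus strand.
Hoxa9: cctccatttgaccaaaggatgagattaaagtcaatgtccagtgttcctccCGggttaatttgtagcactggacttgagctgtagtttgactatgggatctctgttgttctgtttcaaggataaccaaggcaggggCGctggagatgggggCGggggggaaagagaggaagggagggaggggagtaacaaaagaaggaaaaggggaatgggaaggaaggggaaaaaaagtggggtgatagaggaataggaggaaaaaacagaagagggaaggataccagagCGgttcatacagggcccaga
Hoxa10 upstream start: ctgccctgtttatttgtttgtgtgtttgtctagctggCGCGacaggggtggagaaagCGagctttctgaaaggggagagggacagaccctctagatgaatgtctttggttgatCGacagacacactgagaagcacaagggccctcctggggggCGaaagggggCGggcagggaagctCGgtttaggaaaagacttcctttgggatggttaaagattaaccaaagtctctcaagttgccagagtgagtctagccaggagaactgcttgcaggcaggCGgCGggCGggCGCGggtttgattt
Hoxa10 downstream start: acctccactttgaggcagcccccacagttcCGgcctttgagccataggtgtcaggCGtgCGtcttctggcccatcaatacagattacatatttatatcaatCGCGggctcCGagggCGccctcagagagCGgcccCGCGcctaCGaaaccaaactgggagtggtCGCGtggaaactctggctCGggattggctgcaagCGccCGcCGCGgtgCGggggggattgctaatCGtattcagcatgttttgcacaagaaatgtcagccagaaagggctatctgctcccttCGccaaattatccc
The Hoxa9 window held 4 CpG with a GC content of 49.7%. The Hoxa10 windows held 12 CpG (GC content 54.3%) at the upstream and 21 CpG (57.3%) at the downstream start. Over the 32851 windows of 27025 genes in the table, the median was 7 CpG and the median GC content 52.7%. In the NCBIM37 gene models, the Hoxa9 window lies 3.72 kb and the downstream Hoxa10 window 5.91 kb inside the gene from its annotated 5′ end, so the counted models may also hold transcripts that start elsewhere. The Hoxa9 window was poorer in CpG than the median window, and both Hoxa10 windows were richer. Windows listed for the other genes followed, with fold changes of either sign, were richer too (9 to 29 CpG). The part of CpG content in the levels was not tested. The counts are per gene, so transcripts from the 2 starts of Hoxa10 could not be separated.

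Hoxa3 (ENSMUSG00000079560, chr6:52118509-52163335 in NCBIM37, the Ensembl name of mm9), which patterns the pharyngeal arches and thymus, was close to the limit of detection. It had 16 and 10 counts in the controls and 6 and 12 in the deleted libraries, that is 0.704, 0.394, 0.255 and 0.650 CPM. The groups overlapped, with the lowest and the second highest level both in deleted HSPCs. Its log2 fold change was -0.30 (SE 0.72, 95% interval -1.98 to 1.38) and 0.17 without deleted replicate 1, and the width of the interval leaves a severalfold change in either direction undetectable at this depth. Of its exonic bases, 33.0% are shared with a second Hoxa3 gene model on the same strand and 25% lie opposite other genes.

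Hoxa5 (ENSMUSG00000038253, chr6:52151753-52154586), a regulator of axial skeleton and lung development that also acts in erythroid progenitors, had 18 and 22 counts in the controls and 23 and 22 in the deleted libraries. These correspond to 0.792 and 0.866 CPM against 0.977 and 1.19 CPM, so both deleted libraries were above both controls. The log2 fold change of 0.40 (SE 0.53, 95% interval -0.83 to 1.64) had an adjusted p of 0.820 (edgeR quasi-likelihood test, Benjamini-Hochberg adjusted). Without deleted replicate 1 it was 0.44, and the gap between the nearest libraries of the 2 groups was smaller than their 95% counting intervals.

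Hoxa7 (ENSMUSG00000038236, chr6:52164490-52171853), a gene of the middle of the cluster that is raised together with Hoxa9 in MLL-rearranged leukemia, had 7.13 and 5.19 CPM in the controls and 3.53 and 5.74 CPM in the deleted libraries. Its lowest level was in deleted replicate 1, whereas deleted replicate 2 lay between the 2 controls. A log2 fold change of -0.41 (SE 0.39, 95% interval -1.32 to 0.50) was fitted, with -0.18 without deleted replicate 1 and -0.66 without deleted replicate 2. An annotated gene on the other strand, 2700086A05Rik, covers 20.4% of its exonic bases.

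Hoxa9 (ENSMUSG00000038227, chr6:52173099-52181088), the main HOX regulator of myeloid progenitor self-renewal, was the most abundant Hoxa gene in every library. It had 669 and 583 counts in the controls and 355 and 365 in the deleted libraries. In CPM, the controls had 29.4 and 22.9 (mean 26.2 ± 4.58, SD, n = 2) and the deleted libraries 15.1 and 19.8 (mean 17.4 ± 3.31, SD, n = 2). All deleted values were lower than all control values, and the control mean was 1.5 times the deleted mean, while the controls differed from each other by 1.28 times and the deleted libraries by 1.31 times. The log2 fold change was -0.57 (SE 0.25, 95% interval -1.16 to 0.01), and the change did not pass the test (unadjusted p = 0.0528, adjusted p = 0.417, edgeR quasi-likelihood test, Benjamini-Hochberg adjusted). Over 13 alternative settings the log2 fold change stayed between -0.76 and -0.38 and the adjusted p between 0.272 and 1.00. Without deleted replicate 1 it was -0.49, and without control replicate 1, the library with the highest level, -0.38. Same-strand gene models, Mir196b among them, cover 5.67% of its exonic bases, and 0.0593% of the 31-base stretches in its exons have a further copy in the genome.

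Hoxa10 (ENSMUSG00000000938, chr6:52181196-52190853), which promotes progenitor proliferation and lies directly upstream of Hoxa9, had 57 and 42 counts in the controls and 53 and 59 in the deleted libraries. The levels were 2.51 and 1.65 CPM against 2.25 and 3.19 CPM. The groups overlapped, with the highest level in deleted replicate 2. Its log2 fold change was 0.40 (SE 0.47, 95% interval -0.69 to 1.48), opposite in sign to that of Hoxa9, and it was 0.54 without deleted replicate 1. It ranged from 0.11 to 0.73 when single libraries were left out.

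**Figure D2:**
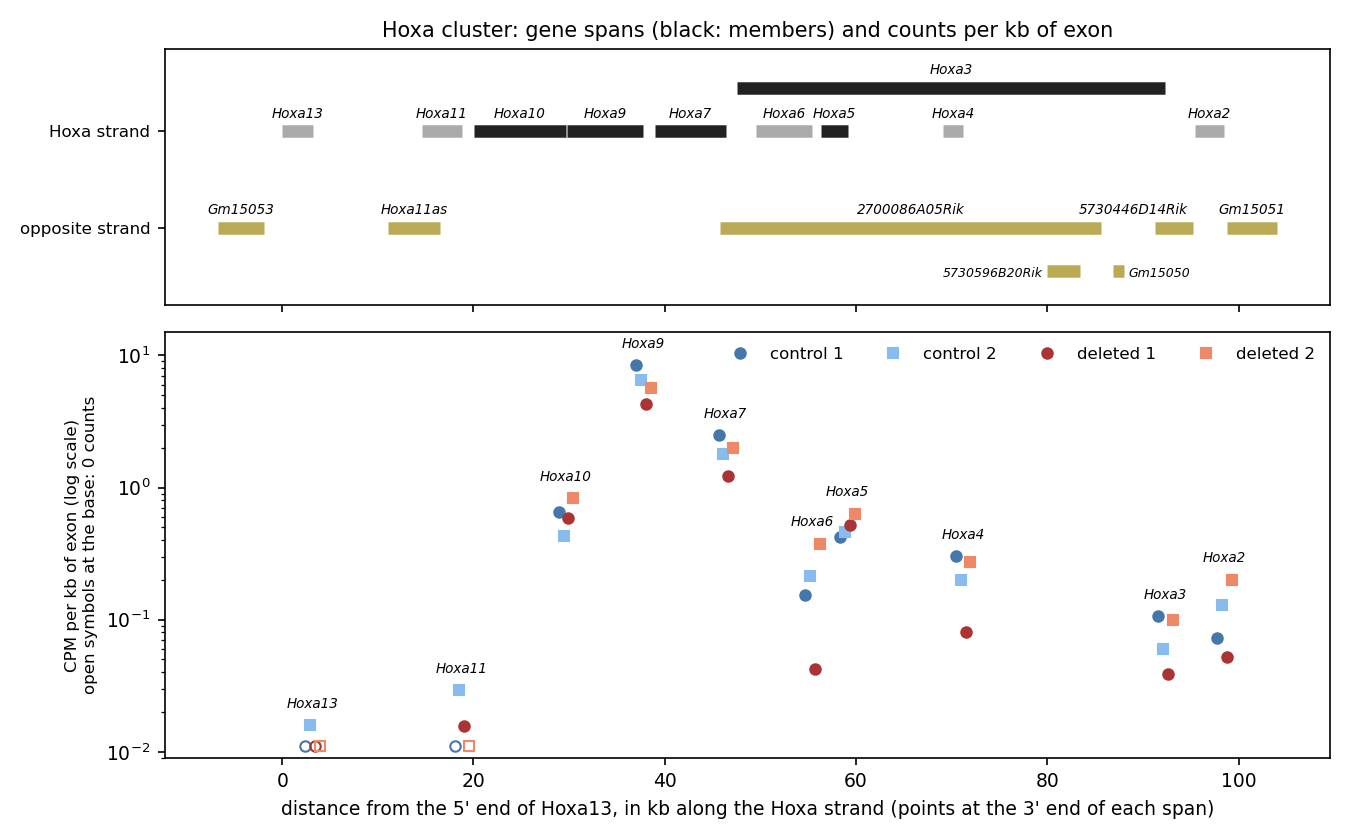
Upper panel, spans of the annotated genes of the Hoxa cluster (black, the 5 genes followed, grey, other Hoxa genes, ochre, genes on the opposite strand), with the distance in kb from the 5′ end of Hoxa13. Lower panel, CPM per kb of exon for each Hoxa gene shown and library on a log axis, with open symbols for libraries without counts, showing a peak at Hoxa9 (4.32 to 8.43 CPM per kb) and Hoxa13 and Hoxa11 near 0.

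Together the 5 Hoxa genes had 922 and 789 counts in the controls and 520 and 564 in the deleted libraries, or 40.6, 31.1, 22.1 and 30.5 CPM. Both deleted libraries were below both controls in this sum, which Hoxa9 dominates, and the gap between control replicate 2 and deleted replicate 2 was small. Within the counts of all 11 Hoxa genes, the share of Hoxa9 was 70.1% (67.1 to 72.9, 95% Wilson interval) and 70.2% (67.0 to 73.2) in control HSPCs. In the deleted libraries it was 64.8% (60.7 to 68.7) and 59.5% (55.6 to 63.4). The share of Hoxa10 was 5.97% and 5.05% in the controls and 9.67% and 9.62% in the deleted libraries. The shares of Hoxa9 and Hoxa10 did not overlap between the groups. Nor did that of Hoxa5, with 1.88% and 2.65% in the controls and 4.2% and 3.59% in the deleted libraries, whereas that of Hoxa3 overlapped. In CPM, 21.4% of all genes tested had both deleted libraries above and 22.9% both below both controls. Shares of a whole are not independent of each other, and no test was made of them. The Wilson intervals cover counting error only. Hoxa7 held 17.0%, 15.9%, 15.1% and 17.3%, with overlapping groups. Expressed as a ratio, there were 11.7 and 13.9 Hoxa9 counts per Hoxa10 count in the controls and 6.70 and 6.19 in the deleted libraries. The groups did not overlap in this ratio, which is given as a description, without a test, because it was chosen after its values were seen. The ratio of Hoxa9 to Hoxa7, in contrast, was 4.13 and 4.42 in the controls and 4.28 and 3.44 in the deleted libraries, with overlapping groups.

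**Figure D3:**
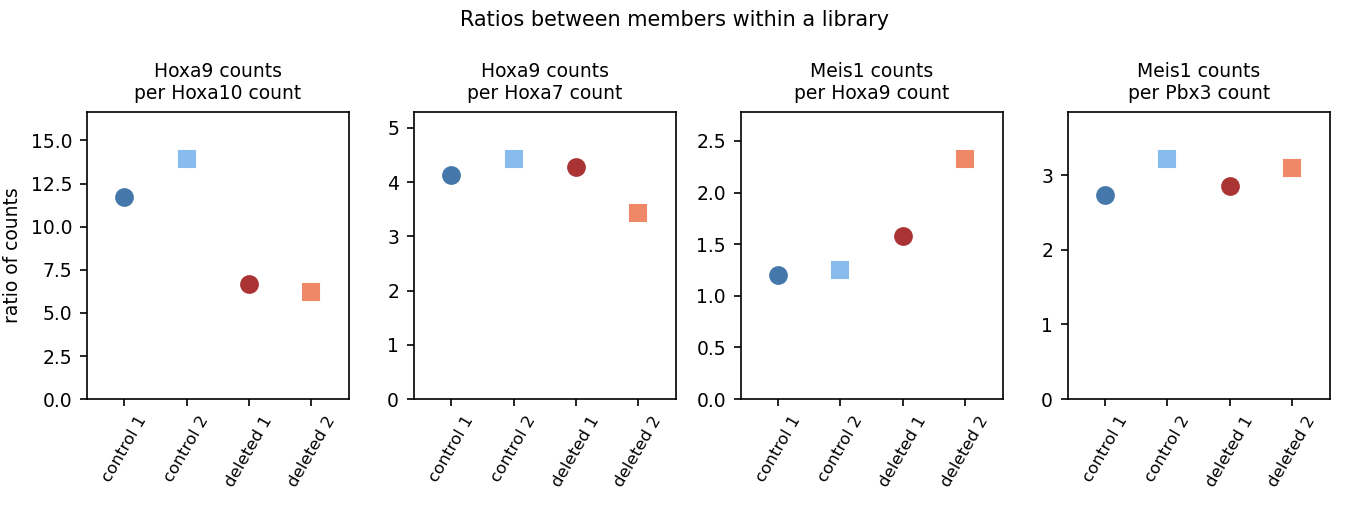
Ratios of counts between pairs of genes in each library, each panel with its own linear axis from 0. Hoxa9 counts per Hoxa10 count were 11.7 and 13.9 in control and 6.70 and 6.19 in deleted HSPCs, whereas Meis1 counts per Pbx3 count stayed between 2.74 and 3.21.

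Among the cofactor genes, Meis1 (ENSMUSG00000020160, chr11:18780433-18918961, minus strand), which encodes the MEIS protein best known in HSPCs and leukemia, had 801 and 728 counts in the controls and 561 and 847 in the deleted libraries. The levels were 35.2 and 28.7 CPM in control and 23.8 and 45.9 CPM in deleted HSPCs. The 2 deleted libraries held both the lowest and the highest level and differed by 1.92 times, against 1.23 times between the controls. The log2 fold change was 0.12 (SE 0.29, 95% interval -0.55 to 0.79). It turned to -0.28 without deleted replicate 2 and was 0.44 without deleted replicate 1, so its direction rested on single libraries. Of its exonic bases, 12.1% lie opposite the annotated gene Gm16140.

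Meis2 (ENSMUSG00000027210, chr2:115688800-115891575, minus strand), a paralog of Meis1 best known from limb, eye and heart development, was barely detected. It had 10 and 2 counts in the controls and 2 and 1 in the deleted libraries and did not pass the filter on low counts. Only control replicate 1, with 0.440 CPM, was above the floor of 3 counts. The summed counts of 12 against 3 gave a control to deleted ratio of 3.49 with an exact 95% counting interval of 0.942 to 19.3. Without control replicate 1 the counts were 2 against 3 and the ratio 1.10 (0.0921 to 9.62). A difference was therefore not detectable at this depth, and control replicate 1 is also the library in which most olfactory receptor genes had a count.

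Pbx2 (ENSMUSG00000034673, chr17:34728211-34734345, plus strand), a broadly expressed PBX gene, was the most abundant and the most even of the 9 genes. Its 1477 and 1710 counts in the controls and 1856 and 1346 in the deleted libraries correspond to 65.0 and 67.3 CPM against 78.8 and 72.9 CPM. Both deleted libraries were above both controls, with a deleted to control ratio of means of 1.15. The log2 fold change was 0.23 (SE 0.21, 95% interval -0.26 to 0.72, adjusted p = 0.728, edgeR quasi-likelihood test, Benjamini-Hochberg adjusted). Without deleted replicate 1 it was 0.06. The interval did not hold changes of 2-fold or more in either direction.

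Pbx3 (ENSMUSG00000038718, chr2:34026977-34228660, minus strand), the PBX partner most often tied to Hoxa9 in leukemia, had 12.8 and 8.93 CPM in the controls and 8.33 and 14.8 CPM in the deleted libraries. As for Meis1, the deleted libraries held both extremes. For Pbx3 the log2 fold change was 0.09 (SE 0.35, 95% interval -0.73 to 0.90), with -0.24 without deleted replicate 2 and 0.36 without deleted replicate 1. Meis1 counts per Pbx3 count were 2.74, 3.21, 2.86 and 3.09 in control replicates 1 and 2 and deleted replicates 1 and 2, a narrower range than either gene showed alone. Pbx2 counts per Pbx3 count were 5.06 and 7.53 in the controls and 9.47 and 4.91 in the deleted libraries. Meis1 counts per Hoxa9 count were 1.2 and 1.25 in the controls and 1.58 and 2.32 in the deleted libraries. The groups did not overlap in this ratio, which is a description without a test, whereas Meis1 alone overlapped between them.

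**Figure D4:**
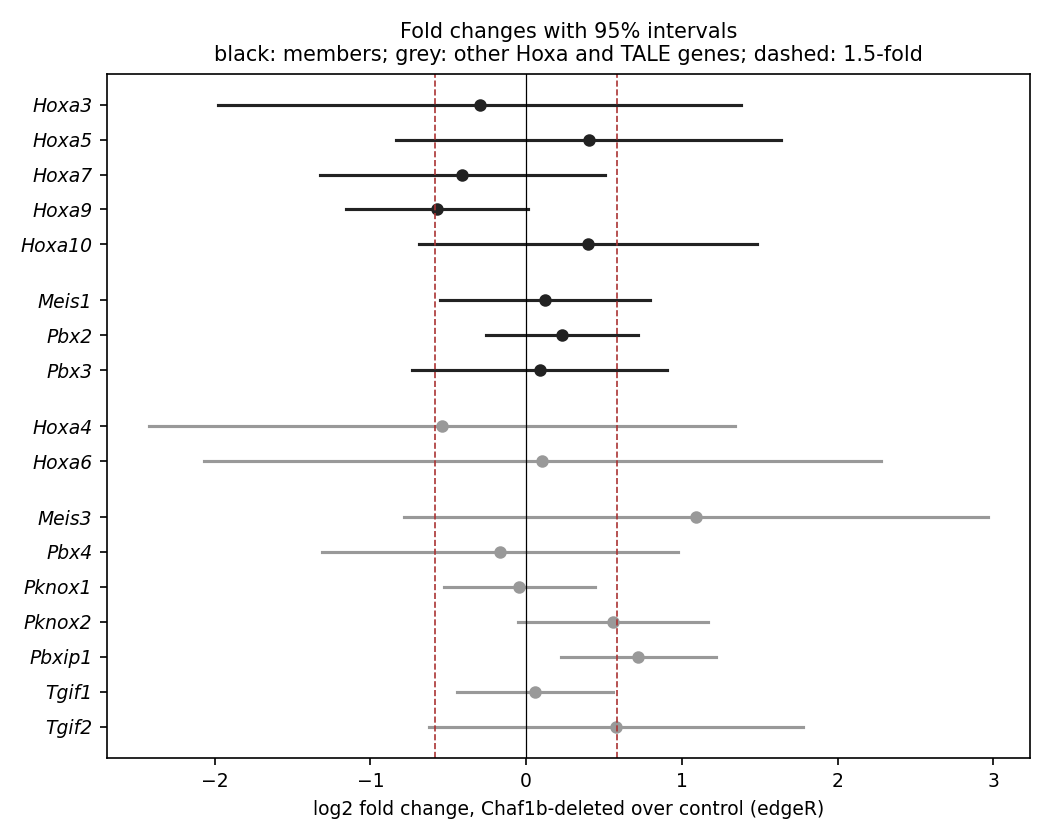
Log2 fold changes of deleted over control HSPCs with 95% intervals from edgeR, for the genes followed that were tested (black) and other tested Hoxa and TALE genes (grey), with dashed lines at 1.5-fold. The intervals of all 8 black genes include 0, and that of Hoxa9 ends at 0.01.

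Levels can be ordered between genes only per length. As a mean over the 4 libraries, the order in CPM per kb of exon was Pbx2 with 19.5, Hoxa9 with 6.24, Meis1 with 4.52, Hoxa7 with 1.88 and Pbx3 with 1.76. Hoxa10 with 0.626, Hoxa5 with 0.510, Hoxa3 with 0.0762 and Meis2 with 0.0138 followed. Neighbours whose ranges over the 4 libraries overlapped were Hoxa9 and Meis1, with Hoxa9 higher in 3 libraries, Hoxa7 and Pbx3, with Hoxa7 higher in 2, and Hoxa10 and Hoxa5, with Hoxa10 higher in 3. The other neighbours did not overlap. In control HSPCs, Hoxa9 thus ranked above Meis1, whereas in deleted replicate 2 Meis1 ranked above Hoxa9.

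The replicates had the same order for most of these genes. For 6 of the 9 genes (66.7%), Hoxa3, Hoxa7, Hoxa9, Hoxa10, Meis1 and Pbx3, control replicate 1 was above control replicate 2 and deleted replicate 2 above deleted replicate 1. Of all genes tested, which do not include Meis2, 31.2% had that order. For Hoxa3 and Hoxa10 the 95% counting intervals overlapped within both pairs of replicates, and for Hoxa7 within the controls. The Hoxa genes among them are neighbours in a cluster. Of the 10 progenitor markers only Gata2, a transcription factor gene of stem, mast and erythroid-megakaryocytic cells, had the same order. Its levels were 193, 130, 106 and 171 CPM. So did the summed erythroid markers (48 and 22.6 CPM in control, 16 and 32.8 CPM in deleted HSPCs), of which 5 of 6 were matched and Klf1 and Epor had this order. The summed mast cell and basophil markers had 766 and 468 CPM in control and 639 and 679 CPM in deleted HSPCs. The part of these markers in the spread of the Hoxa and Meis genes was not tested. Markers of other cells were higher in both deleted libraries, with sums of 141 and 242 CPM against 95.5 and 93.7 CPM for 6 megakaryocyte genes and of 18.9 and 17.7 against 7.39 and 10.4 for 6 B cell genes. The 6 T cell markers summed to 7.70 and 5.71 CPM in control and 13.3 and 10.5 CPM in deleted HSPCs, with Cd3e at 0 to 4 counts in every library and Cd3g at 9 counts in deleted replicate 1 and 0 or 1 elsewhere. The 6 macrophage markers summed to 168 and 444 against 373 and 306 CPM, and the 6 stromal and endothelial markers to 9.19 and 3.19 against 12.7 and 13.0 CPM. The 10 progenitor markers summed to 4750 and 4060 CPM in control and 4610 and 3600 CPM in deleted HSPCs, with overlapping groups. Mpo dominated these sums, with 3420 and 2680 CPM in control and 3360 and 2240 CPM in deleted HSPCs. Of the 10 genes, 3 had both deleted libraries above both controls, 1 below, and 6 overlapped, against 21.4% above and 22.9% below among all genes tested. Of the 8 neutrophil markers, 7 had a positive log2 fold change, with a median of 0.63, and 3 had both deleted libraries above both controls although the sums overlapped. These 3 were Cxcr2, a chemokine receptor of mature neutrophils, with 126 and 105 CPM in control and 297 and 357 CPM in deleted HSPCs, Mmp8 with 397 and 250 against 1280 and 728 CPM, and Ltf with 4810 and 4970 against 10600 and 7570 CPM. Cxcr2 was called higher (log2 fold change 1.52, SE 0.22, adjusted p = 0.0429, edgeR quasi-likelihood test, Benjamini-Hochberg adjusted), and without control replicate 2 the call was lost at 1.38 (adjusted p = 0.0917, same test). It was also lost under the same 4 other settings as the call of Flt3, with adjusted p from 0.0554 to 0.0927 in that test. Mmp8 (1.69) and Ltf (0.94) were not called. The part of these markers in the levels of the 9 genes, Hoxa9 with its lower level among them, was not tested.

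**Figure D5:**
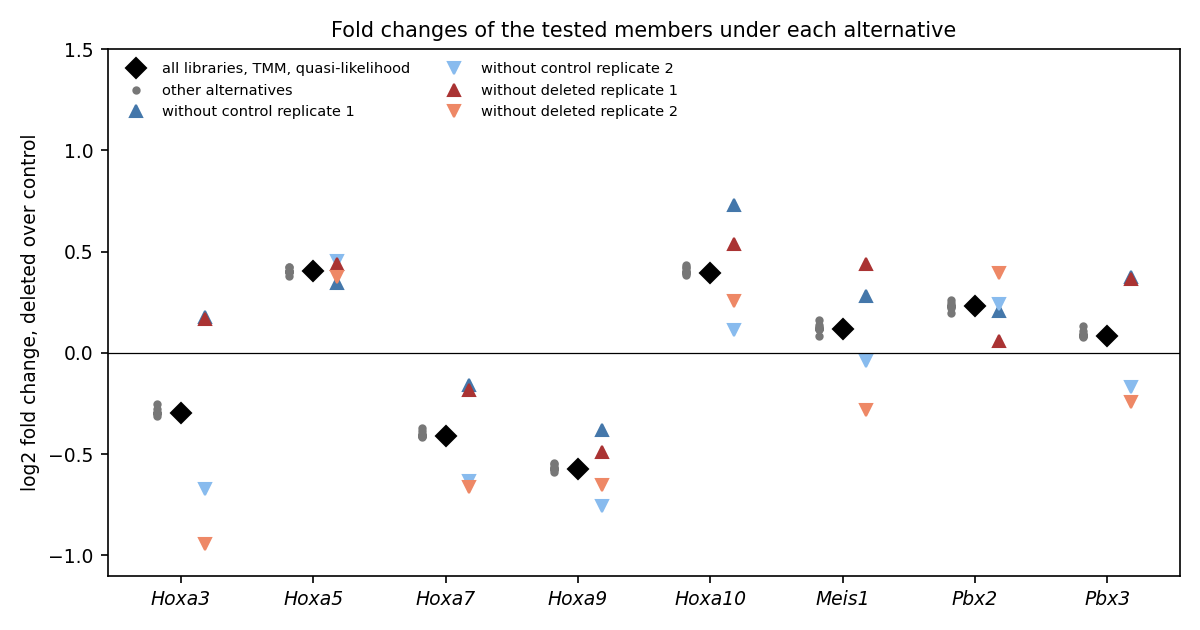
Log2 fold change of each tested gene with all libraries (black diamonds), under other normalizations, filters and tests (grey) and with 1 library left out (triangles). Hoxa3, Meis1 and Pbx3 changed sign when single libraries were left out, and Hoxa9 stayed between -0.76 and -0.38.

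The other 6 Hoxa genes had few counts. Hoxa4 had 11, 8, 3 and 8 counts and a log2 fold change of -0.54, and Hoxa6 had 7, 11, 2 and 14 counts and 0.10. Hoxa2, with 3 to 9 counts, and Hoxa11 and Hoxa13, with 0 to 2 counts each, were not tested. Of these 6 genes, 3 were tested and 0 were called in either direction.

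The other TALE genes and partners numbered 8, all tested. Of these, 0 were called in either direction, 2 had an unadjusted p under 0.05 with a higher level in the edgeR quasi-likelihood test, and 5 had both deleted libraries above both controls. Among all genes tested these shares were 9.15% and 21.4%. The median log2 fold change of the 8 genes was 0.57. Pbxip1, whose product binds PBX proteins and hinders their work with HOX proteins, had 106 and 91.9 CPM in the controls and 164 and 155 CPM in the deleted libraries. Its log2 fold change was 0.72 (SE 0.21, unadjusted p = 0.0106, adjusted p = 0.228, edgeR quasi-likelihood test, Benjamini-Hochberg adjusted). Pknox2 had 23.3, 16, 27.4 and 29.5 CPM (log2 fold change 0.56) and Tgif2, a repressor of the class, 1.23, 0.905, 1.66 and 1.46 CPM (0.58). Meis3 had 13, 3, 15 and 15 counts (1.09, SE 0.81), with 2.58 without control replicate 1 and 0.34 without control replicate 2. Pbx4 (-0.17), Pknox1 (-0.04) and Tgif1 (0.06) were nearest to 0, and each changed sign when single libraries were left out, with Pknox1 between 39.5 and 43.5 CPM in every library.

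The remaining HOX clusters gave little to measure. Of 10 Hoxb genes, 2 were tested and 0 called. Hoxb4, which expands hematopoietic stem cells when overexpressed, had 143 and 156 counts in the controls and 97 and 94 in the deleted libraries, with a log2 fold change of -0.42 (SE 0.35, adjusted p = 0.703, edgeR quasi-likelihood test, Benjamini-Hochberg adjusted). Hoxb3 had 10, 20, 11 and 19 counts and 0.26. Of 9 Hoxc genes, 6 had a count in some library, and of 8 matched Hoxd genes 5 had one, but none passed the filter on low counts. In control replicates 1 and 2 and deleted replicates 1 and 2, the Hoxc counts summed to 19, 5, 3 and 1. The Hoxd counts summed to 8, 1, 0 and 2. Control replicate 1, highest in both, also had counts on the largest share of olfactory receptor genes (39.7%).

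Regulators known to act on the Hoxa cluster were read from 2 lists. Of 16 genes that keep Hoxa genes active, which hold the MLL1 complex, the DOT1L and AF9 family partners and the Cdx genes, 13 were tested and 0 called. Of these, 5 had both deleted libraries below both controls, against 22.9% of all genes tested, and 0 above, against 21.4%, and the median log2 fold change was -0.23. In the edgeR quasi-likelihood test fitted across all genes, 2 had an unadjusted p under 0.05 with a lower level, against 3.1% of all genes tested. These were Mllt3, the gene for AF9, with 31.4 and 28.3 CPM against 17.1 and 20.6 CPM (log2 fold change -0.65) and Rbbp5, a core subunit of MLL complexes, with 81.9 and 71.7 CPM against 48.9 and 58.5 CPM (-0.50). Their adjusted p-values were 0.299 and 0.378 in that test. Mll1 itself had 132 and 136 CPM in the controls and 78.0 and 222 CPM in the deleted libraries, with overlapping groups and a direction that rested on deleted replicate 2. Cdx1, Cdx2 and Cdx4 had at most 1 count in a library. Of 17 Polycomb genes, which repress the cluster, all were tested, 0 were called, 0 had an unadjusted p under 0.05, 1 lay above and 5 below the controls (21.4% and 22.9% of all genes tested), and the median log2 fold change was -0.15.

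A list of 16 genes known to act downstream of Hoxa9 and Meis1 was tested in full, with 1 called higher, 0 called lower, and a median log2 fold change of 0.03. The called gene was Flt3, the receptor tyrosine kinase of early progenitors, with 106 and 135 counts in the controls and 454 and 419 in the deleted libraries. Its log2 fold change was 2.09 (SE 0.28, adjusted p = 0.0383, edgeR quasi-likelihood test, Benjamini-Hochberg adjusted). The call was lost at nearly the same fold change in edgeR scaled by the size factors of DESeq2 or by totals alone, with at least 10 counts in every library and with a replicate block (adjusted p = 0.0503, 0.0585, 0.0651 and 0.0960, edgeR quasi-likelihood test), and kept without each single library. The other genes of the list with an unadjusted p under 0.05 were Sox4, Camk2d and Cd34 with higher levels (log2 fold changes 0.95, 0.71 and 0.57) and Myb with a lower level (-0.59). With Flt3, 4 of the 16 genes were thus higher and 1 lower, against 9.15% and 3.1% of all genes tested. Of the exonic bases of Sox4, 54.6% lie opposite the annotated gene Gm17419. Both deleted libraries lay above both controls for 4 of the 16 genes, below for 4, and the groups overlapped for 8. This split is given beside the 21.4% and 22.9% of all genes tested.

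The genes with profiles most like those of Hoxa9 and Meis1 were found by the root mean square difference of centred log2(CPM + 0.5) values over the 4 libraries, among 16500 genes. Nearest to Hoxa9 were Klhl23 (60.7, 47.4, 31.5 and 40.9 CPM, difference 0.00337), Adat1 (0.0124) and Zfp322a (0.0257). Of the genes followed, Hoxa7 was nearest to Hoxa9, at rank 480, and Hoxa10 the farthest, at rank 10387. Nearest to Meis1 were ENSMUSG00000098923 (0.00854), Gm13830 (0.0165) and SNORD5 (0.0169), all 3 with low levels of 0.425 to 2.17 CPM. Pbx3 was at rank 94 and Hoxa9 at rank 7606 for Meis1. With only 4 libraries many genes share a profile closely, and no test was made of these ranks.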

How the data were processed

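Total RNA of sorted HSPCs was sequenced in 4 libraries, after depletion of ribosomal RNA and with strand-specific kits per the labels. The authors aligned reads to mm9 with STAR and counted them per gene with HTSeq. The deposited values are these raw counts per Ensembl gene, one library per table, with no normalization. The annotation release and the strand setting are not given in the sources used here, so reads from overlapping genes on the 2 strands cannot be told apart. In the NCBIM37 annotation 33068 of the 43629 identifiers have a name, and these hold 96.9% to 98.4% of the counts. Overlaps with unnamed identifiers are unknown, and the second Hoxa3 model is not among the identifiers used here. Reads that HTSeq left outside genes were not part of totals. They made up 42.3% and 42.1% of uniquely aligned reads in control replicates 1 and 2. In deleted replicates 1 and 2 they made up 35.8% and 48.3%. The part of this difference in the spread between the deleted libraries was not tested.

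Genes were kept by edgeR's filterByExpr (minimum count 10) and compared between groups with glmQLFit and glmQLFTest after TMM normalization (factors 0.925 to 1.06), without a covariate, in edgeR 4.0.16, limma 3.58.1 and R 4.3.3. Calls needed a change of 1.5-fold or more and p under 0.05 after Benjamini-Hochberg adjustment over 16500 genes. CPM used the total on genes, and Wilson intervals cover counting error only, as reads have no molecular identifiers. An exact permutation test of 2 against 2 libraries cannot give p below 0.333, so none was used. Alternatives were other normalizations, filters and tests (DESeq2 1.42.0 among them), a replicate block, stricter thresholds and each library left out. The procedure was tested on simulated data. The replicate numbers come from the labels.

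The genes and gene lists were chosen with earlier results of these data known. Named are the 9 genes, Chaf1b, other Hoxa and TALE genes, from the Hoxb, Hoxc, Hoxd, regulator and downstream lists the called genes and otherwise up to 4 with the lowest unadjusted p under 0.05, and the 3 nearest profiles of Hoxa9 and Meis1. Hoxb3, Hoxb4, Mll1, the Cdx genes, Gata2, Cxcr2, Mmp8, Ltf and the genes opposite the Hoxa strand were named after their values were seen. Promoter windows came from RefSeq (GRCm38.p6), matched by symbol for 8 of the 9 genes. Pbx3 had no entry. Some genes of the lists, although counted in them, are not reported here by name. Exonic 31-base stretches were searched in NCBIM37.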

Additional observations from a re-analysis of the deposited data

How the results depend on the processing

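For the 9 genes, 0 were called higher and 0 lower under every alternative tried. Signs were kept for Hoxa5 (0.34 to 0.45), Hoxa7 (-0.66 to -0.16), Hoxa9 (-0.76 to -0.38), Hoxa10 (0.11 to 0.73) and Pbx2 (0.06 to 0.39). Hoxa3, which lacked 10 counts in every library, Meis1 and Pbx3 reversed only when single libraries were left out. Hoxa3 was 0.18 without control replicate 1 and 0.17 without deleted replicate 1 (range -0.94 to 0.18). Meis1 was -0.04 without control replicate 2 and -0.28 without deleted replicate 2 (range -0.28 to 0.44). Pbx3 was -0.17 and -0.24 without the same 2 libraries (range -0.24 to 0.38). Hoxa9 had its lowest unadjusted p, 0.0486, with DESeq2's size factors in edgeR. Meis2 could be fitted only without the filter on low counts (log2 fold change -1.70, adjusted p = 0.824 in the edgeR quasi-likelihood test). Among the other named genes, leaving out single libraries gave ranges of -1.46 to 0.041 for Hoxa4, -1.93 to 0.94 for Hoxa6, -0.79 to 0.27 for Pbx4, -0.18 to 0.10 for Pknox1, -0.073 to 0.19 for Tgif1, -0.26 to 0.73 for Hoxb3, -0.64 to 0.65 for Mll1 and, with no change of sign, 0.34 to 2.58 for Meis3. Counts of calls over all genes moved far more, and the cause was not tested. Against 61 higher and 1 lower, they were 27 higher with DESeq2's size factors, 30 with library size only, 808 higher and 79 lower without a filter, and 3 and 0 with at least 10 counts in every library. They were 537 and 37 with edgeR's exact test, 583 and 40 with its likelihood ratio test, 472 and 34 with DESeq2, and 0 and 0 at 2-fold with an adjusted p under 0.01. Leaving out any 1 library gave 125 to 331 higher and 6 to 42 lower, where the lone library of a group is assumed to vary like those of the other group. With the replicate number as a block, 14 were called higher and 0 lower, Hoxa6 reversed to -0.15, and Hoxa9 had -0.57 (adjusted p = 0.389, edgeR quasi-likelihood test). Deviations of the replicate 1 libraries from their group means correlated with r = 0.01 across 16500 genes, which are not independent. With 2 libraries per group and deleted replicate 1 standing apart, this cannot decide whether same-numbered libraries were paired. Depth limits Hoxa3, Hoxa5 and Meis2 most, each with under 25 counts per library.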

Other observations

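Genes on the strand opposite the Hoxa genes were read as a group of 7 chosen after the values were seen, and 1 of them passed the filter on low counts. That gene, 2700086A05Rik, for which RefSeq gives the name Hoxaas3, had 21 and 26 counts in the controls and 9 and 12 in the deleted libraries (log2 fold change -0.91, SE 0.59, adjusted p = 0.598, edgeR quasi-likelihood test with Benjamini-Hochberg adjustment). Gm15051, which RefSeq lists as Hotairm1, a noncoding RNA, had 2 and 2 counts in the controls and 9 and 6 in the deleted libraries. 5730446D14Rik had 4, 5, 0 and 1 counts, Gm15050 2, 8, 1 and 3, and 5730596B20Rik 5, 5, 0 and 5. Gm15053, the Hottip RNA at the Hoxa13 end, had 2 counts in control replicate 1 and 0 elsewhere, and Hoxa11as had 0 in every library.

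Differences between replicates were read by gene span. The median log2 difference, deleted replicate 2 minus deleted replicate 1, was -0.08 over 4841 tested genes that span up to 10 kb, -0.09 over 6637 genes up to 50 kb, 0.08 over 1898 genes up to 100 kb and 0.17 over 1673 longer genes. Between the controls, replicate 2 minus replicate 1, the same bins had medians of -0.06, -0.08, -0.02 and 0.05. Between the deleted libraries, Meis1, which spans 139 kb, had 0.73 and Pbx3, with 202 kb, 0.61, whereas between the controls they had -0.32 and -0.53. Hoxa3, with 44.8 kb, had 0.52 between the deleted libraries. Of the short genes, Hoxa7 had 0.45, Hoxa10 0.26, Hoxa9 0.19 and Hoxa5 0.06, all above the median of their bin, and Pbx2 had -0.31, below it. The part of gene span in these values was not tested.

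Letters known as binding motifs of the TALE class were searched on both strands of the promoter windows. TGACAG, the MEIS motif, was in 1 of the 9 windows of these genes, that of Hoxa3, and in 19.2% of all 32851 windows. TGATNNAT, a PBX-HOX motif, was in 0 of the 9 and in 8.85% of all windows. A window without the letters says nothing about binding.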
